A study of Mus musculus with 14 samples.

Results

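The Hox genes were described by cluster and by paralog number in samples taken as lymphatic endothelium from mouse lymph nodes, in both sinuses and both ways of isolating the cells. The members were the 39 genes that the arrays name Hoxa, Hoxb, Hoxc or Hoxd with a number, of 34741 genes measured in all. They were measured by 44 probes. Where a gene had more than 1 probe, the one with the highest mean signal over the 14 arrays was used, which applied to 5 genes. The Hoxa cluster had 11 members, Hoxb 10, Hoxc 9 and Hoxd 9.

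All samples came from C57Bl/6 mice, with no treatment or genetic change named in the labels. Cells of the subcapsular sinus, which receives incoming lymph, and of the medullary sinus, through which lymph leaves, were taken in 2 ways. In the first, laser-capture microdissection (LCM), 50 cells per sample were cut out of frozen tissue after staining of CD31 and F4/80, with 5 samples per sinus. These sections came from inguinal, axillary and brachial nodes. In the second, 1200 cells per sample were sorted by flow cytometry (FACS) from digested nodes with a lineage cocktail, CD73, podoplanin and a dead-cell dye, with 2 samples per sinus. The sorted cells came from the same 3 sites and also from popliteal, caudal, lumbar, mesenteric, renal and deep and superficial cervical nodes. No sample is labelled with the node it came from. The set of node sites therefore changed together with the isolation, the number of cells and the digestion, and these cannot be told apart. The labels call the samples biological replicates but do not tie them to animals, and several nodes may be pooled in 1 sample, so p-values measure the spread between these samples. In such bulk samples fewer cells with a transcript and less transcript per cell cannot be told apart.

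Hox genes encode homeodomain transcription factors that give cells of the early embryo their place along the head-to-tail axis. In each cluster the genes lie in the order in which they are used along that axis, those with low numbers starting towards the head and those with high numbers towards the tail and the ends of the limbs. Many adult cells, among them fibroblasts and endothelial cells, keep a Hox pattern that reflects where in the body they arose, and Hox proteins bind DNA together with cofactors of the TALE class such as Pbx and Meis. Paralog numbers 1 to 3 are called anterior below, 4 to 8 central and 9 to 13 posterior.

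The Hox proteins share the homeodomain, whose recognition helix lies in the major groove of DNA. Among the probes found by in-frame translation to code for part of that helix are those of Hoxc11 and Hoxc12, and they are shown because it is there that a probe for 1 Hox gene can resemble another. Capitals mark 6 codons of the conserved core of the helix in Hoxc11 and, in Hoxc12, whose probe begins inside the helix, the first 5 codons of the probe, which start within that core. Both probes are 60 bases, written 5′ to 3′ in the sense of the gene, with positions on mm9, the build of the files.
Hoxc11, chr15:102787022-102787081, plus strand: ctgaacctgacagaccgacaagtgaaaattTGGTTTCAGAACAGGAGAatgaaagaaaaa
Hoxc12, chr15:102768889-102768948, plus strand: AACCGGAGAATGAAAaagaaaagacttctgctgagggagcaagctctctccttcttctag
The Hoxb3 probe is the only one of the 44 whose file entry also lists a transcript of another member, Hoxd3, so its signal may include Hoxd3.

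A probe was taken as above background where the scanner software marked it well above background. Values are log2 of the background-adjusted intensity minus the 75th percentile of the array, so 0 is the level of that percentile, and levels are compared between arrays and never between genes. On the single arrays 57.5% to 82.6% of all genes and 41.0% to 89.7% of the Hox genes were above background. The Hox share was below that of all genes on 13 of the 14 arrays. The exception was medullary LCM replicate 3, with 35 of 39 Hox genes. Slide 1 held the LCM arrays of the subcapsular sinus with medullary replicates 1 to 3, and slide 2 the others, so isolation goes partly with the slide. Subcapsular LCM replicate 5 was the only subcapsular LCM array in row 2 of its slide, and the FACS sinuses lay in different rows. Of the 11 markers of lymphatic endothelium, Prox1, Pecam1 and Itga2b were above background on all 14 arrays. Lyve1 and Flt4 were above it on 3 of 5 arrays of each LCM sinus, and in medullary FACS Lyve1, Cdh5, Mmrn1 and Ackr4 were above it on neither array. Pdpn, Stab2 and Reln were above it on both medullary FACS arrays, and Flt4 on 1. Ptprc, expressed by blood cells, was above background on every array.

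Hox signal was spread over all 4 clusters and along their whole length, with the highest rate of detection, for the probes used, at paralog number 9. Over all members and arrays, 330 of 546 measurements (60.4%) were above background, compared with 72.5% for all genes. By cluster the rate was 66.9% in Hoxa, 49.3% in Hoxb, 62.7% in Hoxc and 62.7% in Hoxd. It was 59.8% for anterior, 58.1% for central and 63.0% for posterior members. Paralog number 9 (Hoxa9, Hoxb9, Hoxc9 and Hoxd9), used at the level of the rib cage in the embryo, was above background in 49 of 56 measurements (87.5%). The other Hoxa9 probe was above background on 4 arrays, compared with 13 for the probe used, so this rank depends on the choice of probe. Numbers 8 and 11 were lowest, with 42.9% each.

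**Figure D1:**
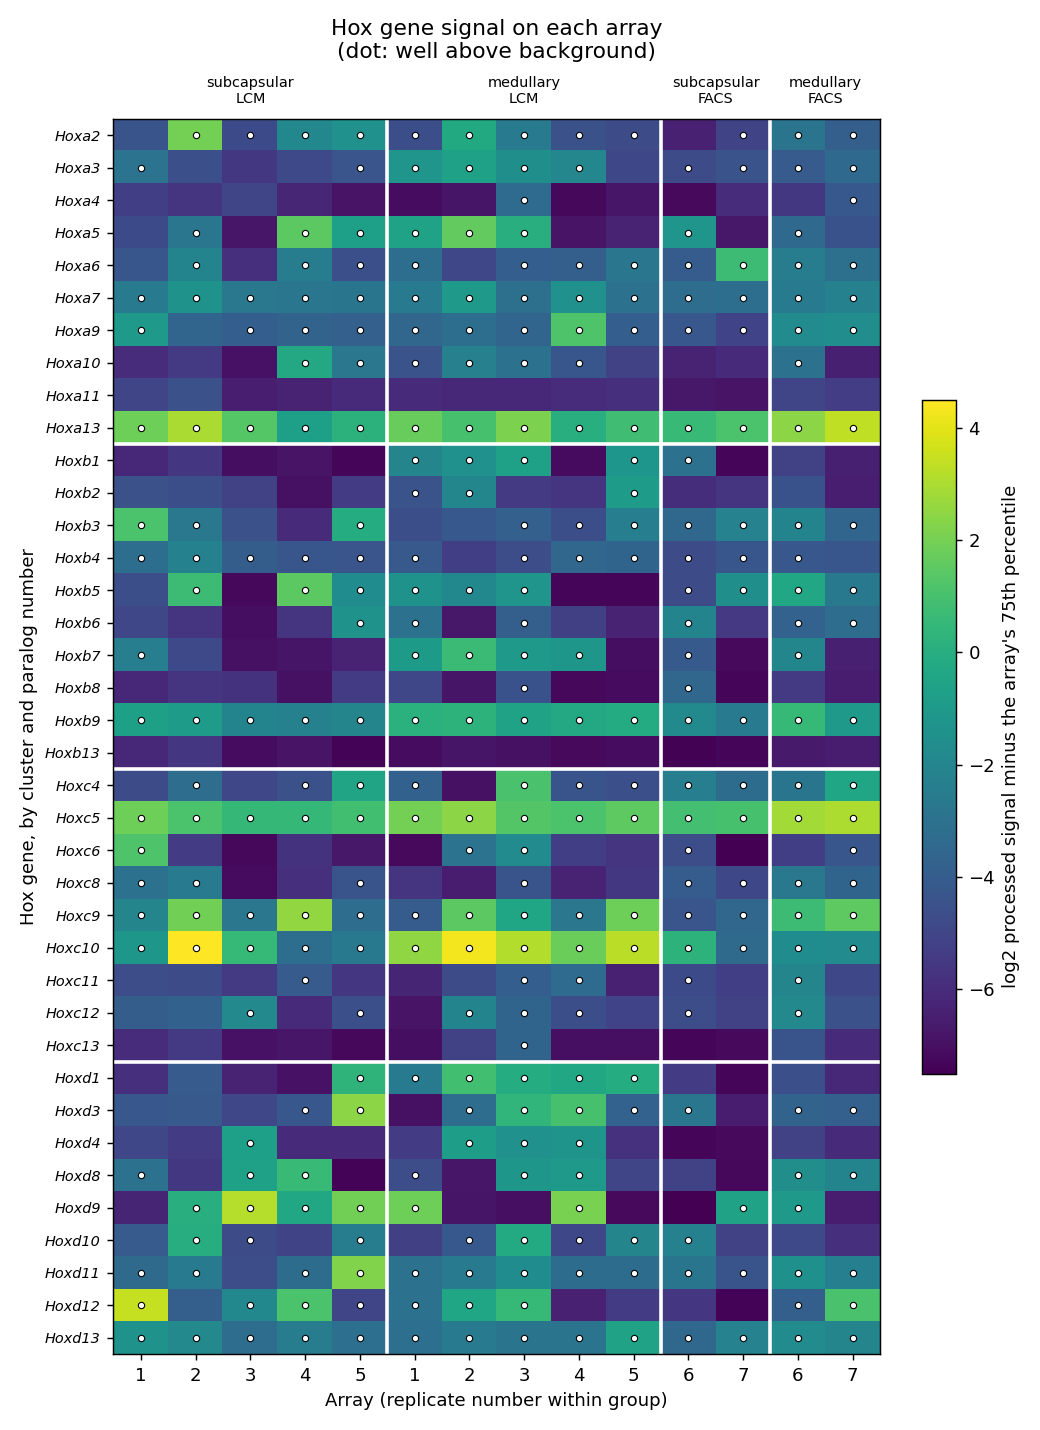
Signal of 38 of the 39 Hox genes (rows, by cluster and paralog number) on the 14 arrays (columns, by group and replicate number), as log2 processed signal minus the 75th percentile of the array. White dots mark values well above background, and 7 rows, among them Hoxc5, Hoxb9 and Hoxd13, carry a dot on every array.

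The anterior members showed the widest contrast in detection between groups. They were above background in 40.0% of the subcapsular LCM and 82.5% of the medullary LCM measurements, and in 50.0% and 62.5% of those of subcapsular and medullary FACS. Subcapsular LCM replicates 1 to 4, in row 1 of the slide with 57.5% to 65.6% of all genes above background, had 3, 3, 1 and 3 of the 8 members. Subcapsular LCM replicate 5, in row 2 with 74.1% of all genes, had 6, and the medullary LCM arrays had 6 or 7. Posterior members were more even, with 61.3% and 67.5% in LCM and 56.3% and 62.5% in FACS. Over all genes the shares were 64.8% and 76.2% in LCM and 76.4% and 78.3% in FACS. For the probes used, paralog number 3 (Hoxa3, Hoxb3 and Hoxd3) was more often above background in FACS, with 46.7% and 73.3% in LCM and 83.3% and 100% in FACS. Each FACS share rests on 2 arrays. The Hoxb3 probe used, which also lists Hoxd3, was above background on both arrays of each FACS group. The other Hoxb3 probe was above it on 1 array of each FACS group, and on 0 subcapsular and 3 medullary LCM arrays. The height of the FACS shares thus depends on the choice of probe. These shares are counts of members and were not tested.

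**Figure D2:**
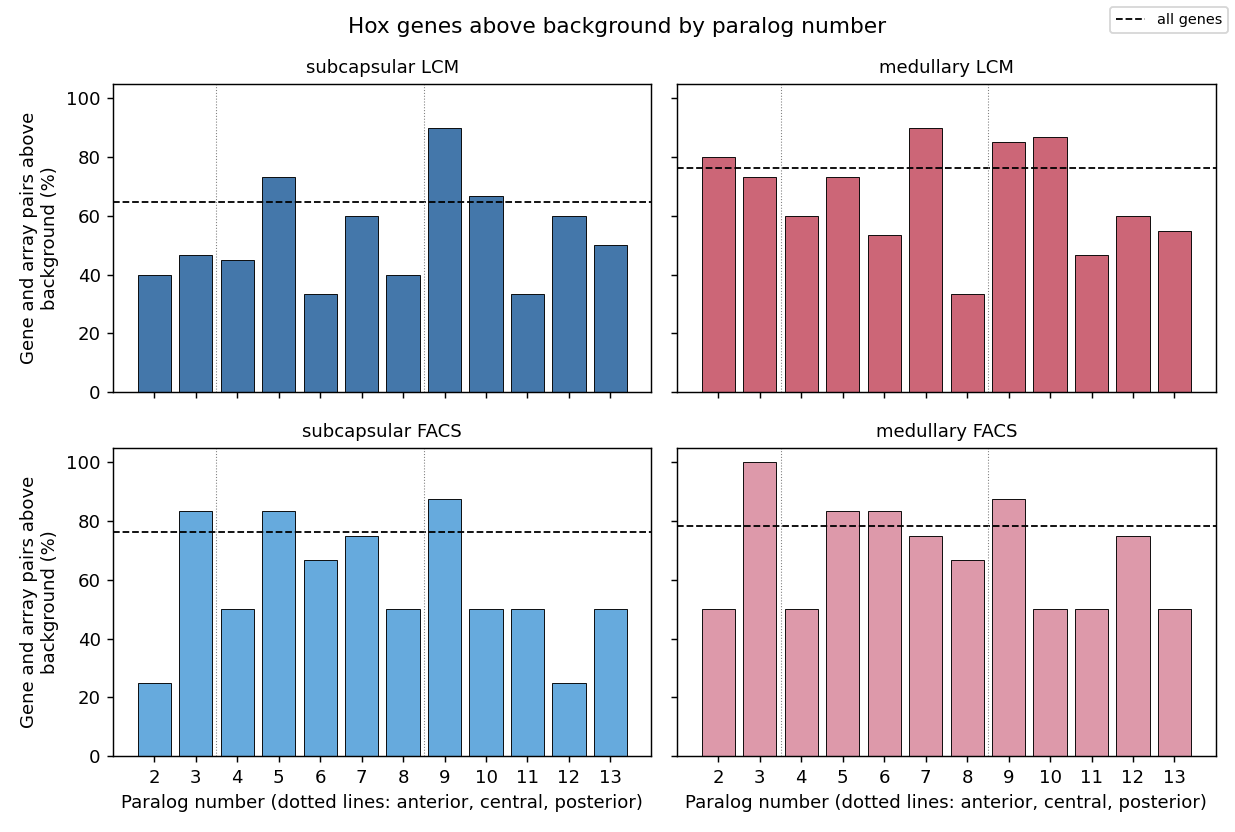
Percentage of gene and array pairs above background for paralog numbers 2 to 13 in the 4 groups (bars), with the same share over all genes as a dashed line. For the probes used, the bar of paralog number 9 lies between 85% and 90% in every group, and that of number 3 reaches 100% in medullary FACS.

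In each group some Hox genes were above background on every array: 8 of 39 in subcapsular LCM, 12 in medullary LCM, 16 in subcapsular FACS and 21 in medullary FACS. The shares of all genes were 43.9%, 57.0%, 68.0% and 68.7%. With only 2 arrays per FACS group that condition is easier to meet there. On all 14 arrays 7 Hox genes were above background (39.6% of all genes were), namely Hoxa7, Hoxa13, Hoxb9, Hoxc5, Hoxc9, Hoxc10 and Hoxd13. The genes Hoxa11 and Hoxb13 were above it on none (2.02% of all genes). Within single groups 7, 2, 10 and 9 Hox genes were above background on no array, in the same order of groups, where 13.9%, 6.67%, 15.2% and 12.1% of all genes were.

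Hoxc5, a central member used at the level of the neck and upper trunk, was steady. On subcapsular LCM replicates 1 to 5 it was 1.87, 1.11, 0.47, 0.49 and 0.89, and on medullary LCM replicates 1 to 5 it was 1.97, 2.40, 1.27, 1.11 and 1.54. On the FACS arrays it was 0.94 and 1.02 in the subcapsular and 2.84 and 3.04 in the medullary sinus. The LCM groups overlapped, while the medullary FACS pair lay above all other arrays.

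Hoxa7, another central member, had one of the narrowest ranges. Its LCM values were −2.51, −1.41, −2.67, −2.81 and −2.84 in the subcapsular and −2.54, −1.02, −3.08, −1.43 and −3.0 in the medullary sinus. Its FACS values were −3.20 and −3.15 in the subcapsular and −2.60 and −2.23 in the medullary sinus. The LCM groups overlapped throughout.

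Hoxa13 and Hoxd13, which act at the tail end of the trunk and in the hands and feet, were above background on all arrays of both isolations. Hoxd13 was −1.39, −1.84, −3.19, −2.48 and −3.12 in subcapsular LCM and −3.12, −2.58, −2.87, −2.90 and −0.59 in medullary LCM. In FACS it was −3.43 and −2.17 in the subcapsular and −1.71 and −2.02 in the medullary sinus. The Hoxd13 values of the 4 groups overlapped, apart from the medullary FACS pair lying above the subcapsular one.
Hoxa13 was 1.85, 3.00, 1.32, −0.72 and 0.19 in subcapsular LCM and 1.70, 1.01, 2.13, 0.07 and 0.83 in medullary LCM. In FACS it was 0.60 and 1.11 in the subcapsular and 2.41 and 3.34 in the medullary sinus, so the FACS groups did not overlap. The other probe of Hoxa13 was above background on 11 of 14 arrays, with a medullary minus subcapsular difference of 3.78 in FACS and −0.28 in LCM, compared with 2.02 and 0.02 for the probe used.

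Hoxd11, which acts with Hoxa11 in the kidney and forearm, was above background on 13 arrays. It was −3.35, −2.58, −4.65, −3.26 and 2.21 in subcapsular LCM, the third of these not above background, and −3.04, −2.54, −1.66, −3.24 and −3.28 in medullary LCM. In FACS it was −2.82 and −4.36 in the subcapsular and −1.46 and −2.31 in the medullary sinus. The single high array was subcapsular LCM replicate 5. That array also held the highest subcapsular LCM values of Hoxd1 and Hoxd3, which lie in the same cluster. The other probe of Hoxd11 was above background on only 4 arrays. Its medullary minus subcapsular difference was 3.39 in FACS and 0.87 in LCM, compared with 1.71 and −0.43 for the probe used.

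The median SD of the tested Hox genes within a group was above that of all genes tested in 3 of the 4 groups. Over all members, Hox genes were above background less often than genes at large (60.4% compared with 72.5%). The SDs were not compared with those of genes of similar signal, so a trait of Hox genes is not shown. Among the 31 Hox genes that entered the LCM comparison, the median SD over 5 arrays was 2.08 in the subcapsular and 1.77 in the medullary sinus, compared with 1.46 and 1.10 over all genes tested. Over the 22 Hox genes of the FACS comparison it was 0.90 and 0.45, compared with 0.56 and 0.70. The SD ran in subcapsular LCM from 0.58 (Hoxc5) to 3.66 (Hoxb5) and in medullary LCM from 0.35 (Hoxb9) to 4.92 (Hoxd9). Hoxd9 had the widest gap, with −6.25, 0.04, 3.19, −0.33 and 1.93 in subcapsular LCM and 1.85, −6.81, −7.02, 2.06 and −7.21 in medullary LCM. Every Hoxd9 value below −6 was not above background. Over the 10 LCM arrays, after removing the group means, the median correlation was 0.12 for 108 pairs of the same cluster and 0.06 for 357 pairs of different clusters. The highest correlation of any pair was 0.97, for Hoxa3 and Hoxb7, which share neither cluster nor paralog number. The paralogs Hoxa5 and Hoxb5, known from lung and gut, had a correlation of 0.91 over those 10 arrays. Neither paralog was above background on subcapsular LCM replicates 1 and 3 or medullary LCM replicates 4 and 5. The 26 pairs with the same paralog number had a median of 0.10. These pairs share their arrays and so their depth of detection, and the correlations are descriptions.

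The LCM comparison asks whether the Hox pattern differs between the sinuses in samples drawn from the same set of node sites. Since no sample is labelled with its node, the mix of sites may differ between the sinuses. Hoxb1 and Hoxd1, of paralog number 1, and Hoxb9 had the lowest p-values, all with higher medullary values, but no Hox gene passed the test. Tested were 31 of the 39 members, those above background in 3 or more of the 5 samples of either sinus. With limma 0 of these 31 had a Benjamini-Hochberg adjusted p under 0.05, where 0.175% of all 27353 genes tested did. At an unadjusted p under 0.05 there were 6 of 31, all higher in the medullary sinus (Hoxb1, Hoxd1, Hoxb9, Hoxa3, Hoxc10 and Hoxb7), where 6.88% of all genes tested were higher at that level and 4.81% lower. Of the tested members 16 had a positive and 15 a negative difference (52.6% of all genes tested were positive), with a median of 0.02 on the log2 scale compared with 0.08 over all genes tested. Under quantile normalization the Hox median was −0.63 and with the deposited log2 values −0.56, so it has no settled sign. The 8 anterior members had a median of 1.08, the 11 central members tested one of 0.12 and the 12 posterior members tested one of −0.03. A member could enter through the sinus in which it was high, so these counts and medians are descriptions. Other cells' genes moved with the sinus too. Of 9 genes of blood and high endothelial venule endothelium 8 had higher values in medullary LCM, with a median difference of 4.47 and 3 called by limma, and all 11 macrophage genes tested had lower medullary values, with a median of −2.49 and 0 called (7 at an unadjusted p under 0.05). In linear units of the 75th percentile, the first list summed to 10.5 to 36.9 in subcapsular and 41.5 to 129 in medullary LCM, and the 12 macrophage genes to 335 to 1527 and 82.1 to 183. Their part in the Hox differences was not tested.

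Hoxb1, which specifies part of the hindbrain and its facial motor neurons, was not above background on any subcapsular LCM array, with −6.13, −5.59, −7.06, −6.85 and −7.29. On medullary LCM replicates 1, 2, 3 and 5 it was −2.06, −1.41, −0.65 and −1.21, all above background, and on replicate 4 it was −7.15 and not above it. The groups thus overlapped through a single medullary array. The difference was 4.09 ± 1.13 (SE, n = 5 per sinus) with a limma adjusted p of 0.225, and the mean medullary signal was at least 4.01-fold higher than the level of detection in the subcapsular arrays. Without medullary LCM replicate 4 the difference was 5.25 with a limma adjusted p of 0.00962. Within slide 1 it was 5.21 (limma adjusted p = 0.0161), and with normexp background correction, which adds an offset of 50 to every signal and so shrinks differences between dim ones, it was 0.99 (limma adjusted p = 0.511). In FACS only subcapsular replicate 6 was above background (−3.0), and subcapsular replicate 7 (−7.28) and the medullary arrays (−5.14 and −6.43) were not.

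Hoxd1, known from pain-sensing neurons, was above background on all 5 medullary LCM arrays, with −2.57, 0.88, −0.09, −0.30 and −0.06. On subcapsular LCM replicates 1 to 4 it was −5.88, −4.03, −6.32 and −6.90, none above background, and on replicate 5 it was 0.32 and above it. The difference was 4.13 ± 1.30 (SE, n = 5 per sinus; limma adjusted p = 0.279). Without subcapsular LCM replicate 5 it was 5.36 with a limma adjusted p of 0.0378. That array lay in the same row of the slide as medullary LCM replicates 1 to 3, and with the row as a block the difference was 3.26 (limma adjusted p = 0.557). With normexp it was 1.29 (limma adjusted p = 0.514).

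The 250 bases before the start of Hoxb1 and Hoxd1 are shown because these paralogs were the 2 Hox genes with the lowest p in LCM. The sequences are from RefSeq on GRCm38, plus strand, with every CG pair in capitals.
Hoxb1, chr11:96365508-96365757: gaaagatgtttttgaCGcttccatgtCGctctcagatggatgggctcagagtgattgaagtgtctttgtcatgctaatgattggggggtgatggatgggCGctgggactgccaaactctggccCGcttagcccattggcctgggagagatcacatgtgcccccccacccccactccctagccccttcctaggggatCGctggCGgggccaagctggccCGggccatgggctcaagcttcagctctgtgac
Hoxd1, chr2:74762730-74762979: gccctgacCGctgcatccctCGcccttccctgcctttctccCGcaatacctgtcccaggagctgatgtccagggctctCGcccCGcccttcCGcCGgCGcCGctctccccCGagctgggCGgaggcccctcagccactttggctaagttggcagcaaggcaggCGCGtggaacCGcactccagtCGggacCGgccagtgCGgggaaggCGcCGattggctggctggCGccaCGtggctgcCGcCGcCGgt
The Hoxd1 window held 24 CG pairs and the Hoxb1 window 7. The median was 12.5 over the 24 windows found for 22 of the 39 Hox genes, and 6 over all 32851 windows. Neither window matched, on either strand, the Hox-Pbx composite letters TGATTNAT, the retinoid receptor half-site AGGTCA or the TATA box letters TATAAA. Of all windows 2.83%, 14% and 12.4% held them, and of the 24 Hox windows 2, 6 and 4 did. Only these exact letters were searched. A stretch that differs at a single base, such as TGATGGAT in the Hoxb1 window, was not counted, so the search does not show that such sites are absent.

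Hoxb9, which patterns the rib cage, was the only Hox gene whose LCM groups did not overlap with the medullary arrays higher, where 1.03% of all genes tested did so and 3.09% did not overlap in either direction. Its values were −0.66, −0.88, −2.09, −2.22 and −2.03 in subcapsular and 0.16, 0.28, −0.60, −0.25 and −0.10 in medullary LCM, all above background. The difference was 1.47 ± 0.50 (SE, n = 5 per sinus; limma adjusted p = 0.316). With the percentile taken over probes above background on all arrays it was 2.20 (limma adjusted p = 0.0329), a scaling that raised the median of all genes tested from 0.08 to 0.81. In FACS Hoxb9 was −1.75 and −2.50 in the subcapsular and 0.53 and −0.99 in the medullary sinus. The medullary arrays were again the higher ones, by 1.89 ± 0.81 (SE, n = 2 per sinus; limma adjusted p = 0.192).

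Hoxa3, needed for the thymus and the pharyngeal arches, was −2.93, −4.55, −5.53, −4.83 and −4.35 in subcapsular LCM, with replicates 1 and 5 above background. In medullary LCM it was −1.23, −0.63, −1.53, −1.95 and −4.91, all but the last above background. The difference was 2.39 ± 0.84 (SE, n = 5 per sinus; limma adjusted p = 0.327). On the FACS arrays, all above background, Hoxa3 was −4.69 and −4.43 in the subcapsular and −4.06 and −3.39 in the medullary sinus.
Hoxc10, used at the lumbar level and in the hindlimb, was 2.53, 4.27, 3.12, 1.81 and 3.27 in medullary LCM. In subcapsular LCM it was −1.15, 4.60, 0.52, −3.14 and −2.65, so that replicate 2 exceeded every medullary array and the other 4 lay below them. The difference was 3.36 ± 1.32 (SE, n = 5 per sinus; limma adjusted p = 0.372).

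**Figure D3:**
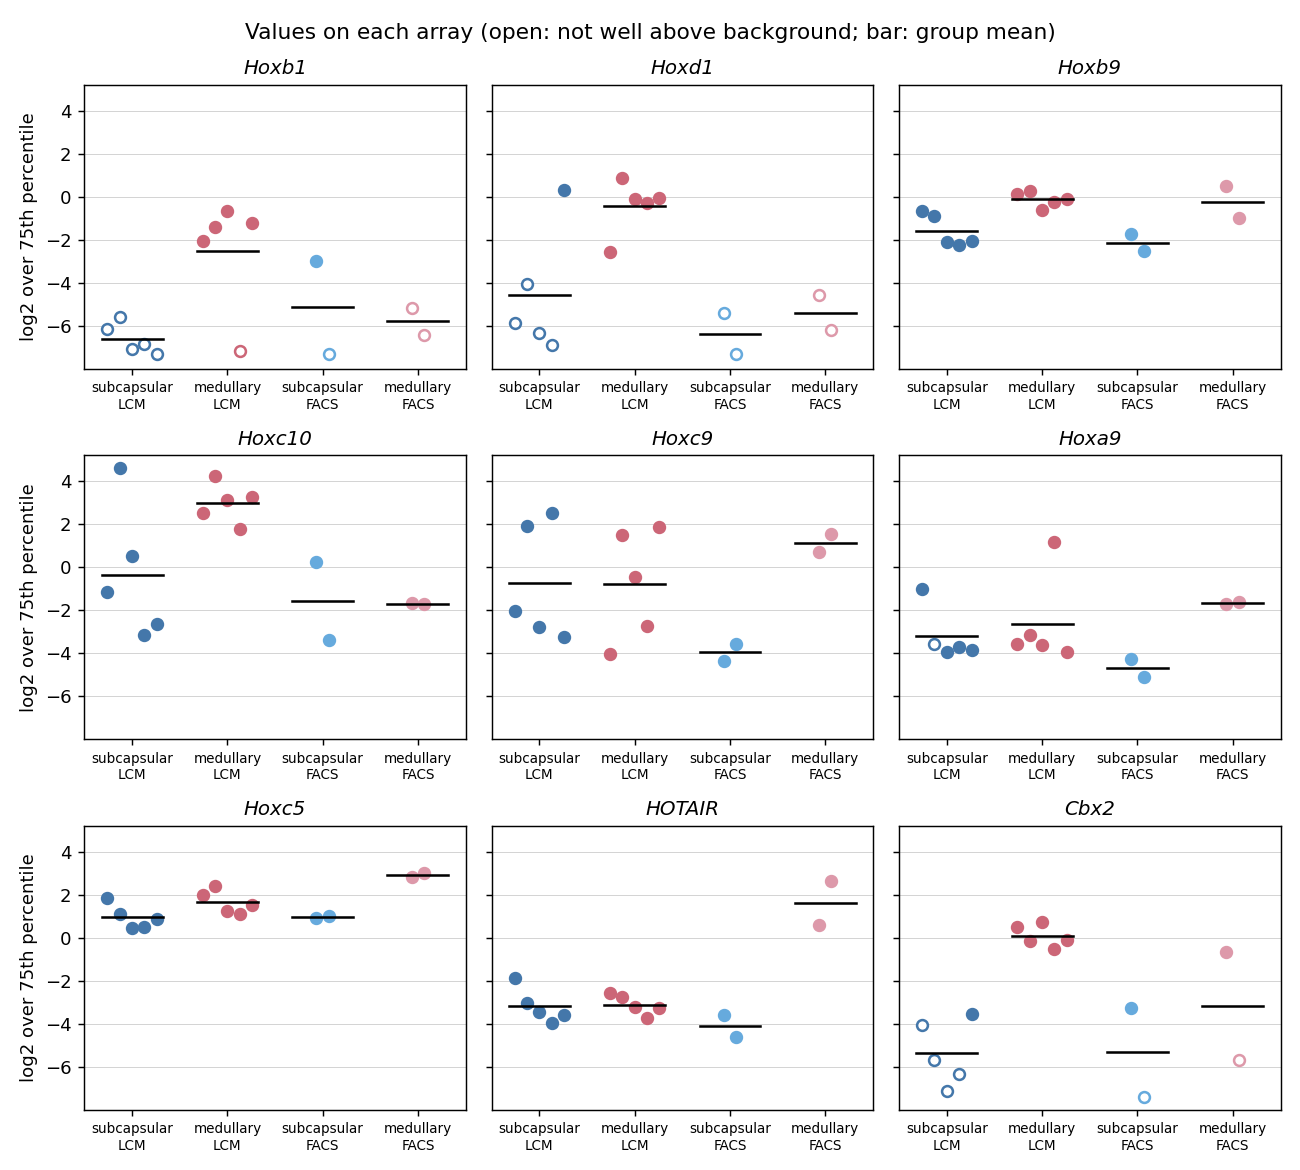
Values on each array of 7 Hox genes, the noncoding HOTAIR and the Polycomb gene Cbx2 in the 4 groups, as log2 signal over the 75th percentile of the array, with bars at group means. Open circles are not well above background: Hoxb1 is open on all subcapsular LCM arrays and on 1 medullary LCM array, and Hoxc9 and HOTAIR are highest among FACS arrays in the medullary pair.

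The FACS comparison puts the same question to sorted cells from more node sites. Hoxc9, Hoxa9 and Hoxd8 had the lowest p-values and the sign was mostly medullary, but again no Hox gene was called. Tested were 22 of the 39 members, those above background in both samples of either sinus. With limma 0 of 22 had an adjusted p under 0.05, and so did 0% of all 27634 genes tested. At an unadjusted p under 0.05 there were 6 of 22, all higher in the medullary sinus, where 18.2% of all genes tested were higher and 13.7% lower at that level. Of the tested members 19 had a positive and 3 a negative difference (59.5% of all genes tested were positive). The median was 1.44 compared with 0.73, and it was between 0.86 and 1.55 under the other scalings and backgrounds, with that of all genes between 0.43 and 0.84. In 14 of 22 the medullary arrays both exceeded the subcapsular ones, as they did in 43% of all genes tested, while 69.6% of all genes did not overlap in either direction. Hoxa11 and Hoxb13, above background on no array and not tested, also had higher medullary FACS means. These were −5.15 compared with −6.80 for Hoxa11 and −6.59 compared with −7.35 for Hoxb13. A higher medullary value thus also occurred without detected signal. The summed level of 6 B cell markers, in linear units of the 75th percentile, was 37.9 to 106 in the medullary and 158 to 256 in the subcapsular FACS pair. That of 11 lymphatic markers was 2.39 to 2.5 and 18.7 to 41.0, and 4 of the 11 were above background on neither medullary array. A linear sum gives most weight to the brightest gene, in the subcapsular pair Pecam1, with FACS means of 4.62 subcapsular and −3.60 medullary. By gene, 5 of the 9 lymphatic markers tested had higher and 4 lower medullary values. Their median difference was 0.77, compared with 0.73 over all genes tested. The part of these B cell and lymphatic markers in the Hox differences was not tested.

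Hoxc9, which sets the thoracic identity of motor neurons, was −4.34 and −3.54 in the subcapsular and 0.71 and 1.55 in the medullary FACS arrays. The difference was 5.07 ± 0.69 (SE, n = 2 per sinus) with a limma adjusted p of 0.0684. With the trend and robust options the adjusted p from limma was 0.0496, in a fit that called 6.51% of all genes tested where the standard one called none. In LCM Hoxc9 was −2.05, 1.93, −2.76, 2.54 and −3.22 in the subcapsular and −4.02, 1.5, −0.45, −2.72 and 1.86 in the medullary sinus. All 14 Hoxc9 values were above background, and both LCM groups covered nearly the same range.

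Hoxa9, known from blood stem cells and endothelium, was −4.25 and −5.10 in the subcapsular and −1.69 and −1.61 in the medullary FACS arrays. The difference was 3.03 ± 0.63 (SE, n = 2 per sinus; limma adjusted p = 0.0961), or 1.49 with normexp. Its other probe was above background on none of these 4 arrays. In LCM Hoxa9 was −1.01, −3.57, −3.94, −3.68 and −3.83 in the subcapsular sinus, the second of these not above background, and −3.56, −3.16, −3.59, 1.2 and −3.93 in the medullary sinus. A single high array stood out in each LCM group.

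Hoxd8 was not above background on the subcapsular FACS arrays (−5.15 and −7.24) and was above it on the medullary ones (−1.57 and −2.11). The bound on the medullary excess was at least 10.2-fold (limma adjusted p = 0.0991). In LCM it was −3.02, −5.56, −0.65, 0.65 and −7.37 in the subcapsular and −4.65, −6.76, −1.15, −1.01 and −5.0 in the medullary sinus, with 3 of 5 above background in each.
Hoxd12, which acts in the developing digits, was likewise above background only on the medullary FACS arrays (−3.88 and 1.06), not on the subcapsular ones (−5.58 and −7.39). The bound was at least 14.4-fold, with a limma adjusted p of 0.167. In LCM it was 3.44, −3.87, −1.88, 1.12 and −5.0 in the subcapsular and −2.97, −0.46, 0.56, −6.39 and −5.36 in the medullary sinus, with no separation.
Hoxc5 was 1.96 ± 0.55 higher in the medullary FACS pair (SE, n = 2 per sinus; limma adjusted p = 0.127). In a single fit of all 14 arrays it was the only Hox gene called in the FACS sinus comparison, with a limma adjusted p of 0.0347, where that fit called 16.2% of all genes tested.

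**Figure D4:**
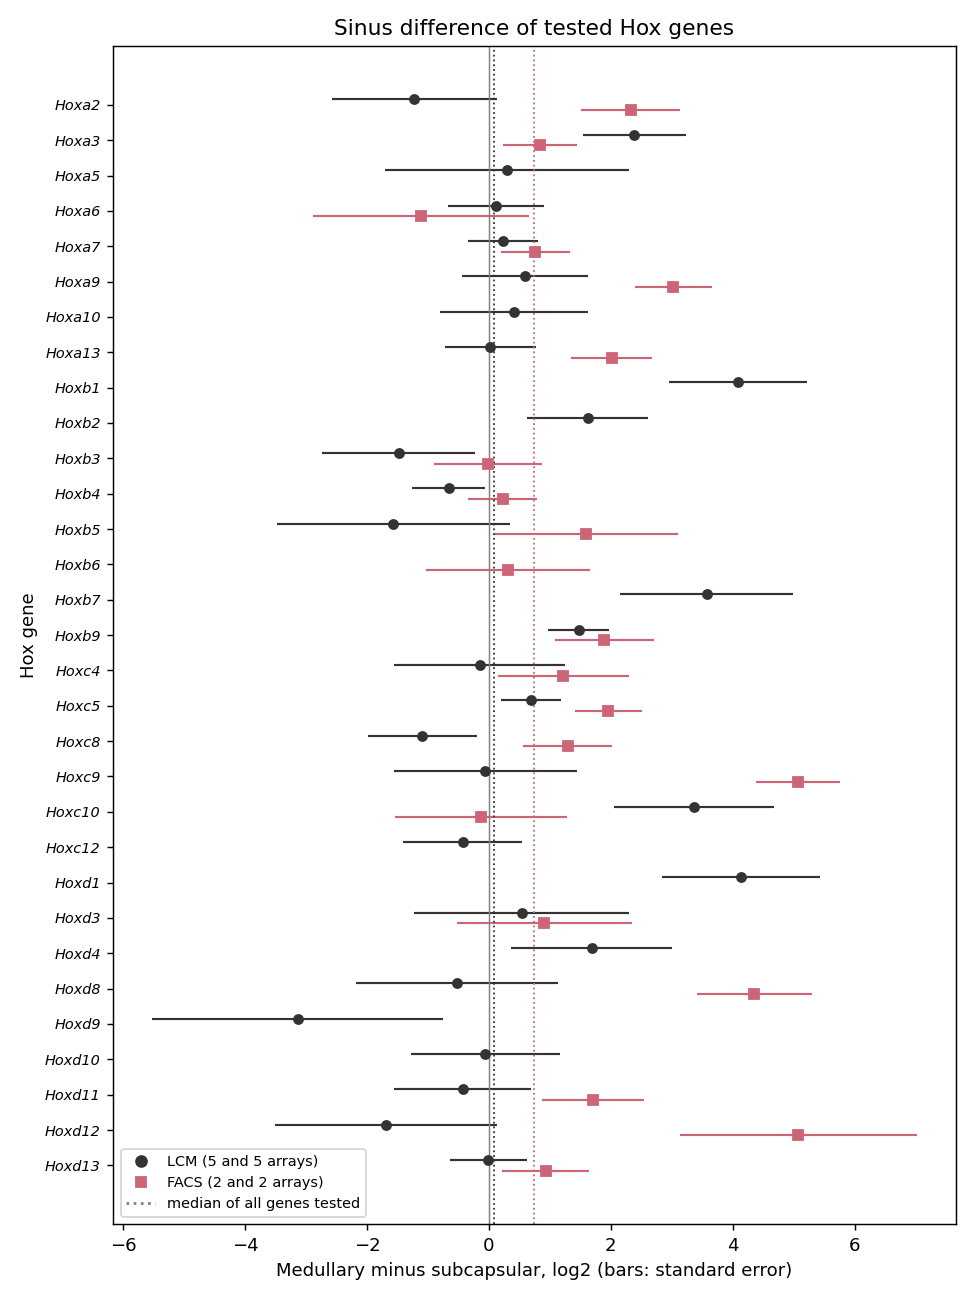
Medullary minus subcapsular difference of the tested Hox genes drawn, on the log2 scale in LCM (circles, 5 arrays per sinus) and FACS (squares, 2 arrays per sinus), with standard errors as bars and the medians of all genes tested as dotted lines. Hoxb1 and Hoxd1 have only an LCM value, at 4.09 and 4.13, and Hoxc9 lies at −0.06 in LCM and 5.07 in FACS.

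The comparison of FACS with LCM sets cells from the wider set of nodes beside those from inguinal, axillary and brachial nodes, though with everything else that changed between the isolations. Hoxd1, Hoxc10 and Hoxd4 had the lowest p-values, all lower in FACS, and no Hox gene was called. Of the 39 members 32 were tested. With limma 0 of 32 had an adjusted p under 0.05, where 3.86% of all 29654 genes tested did. At an unadjusted p under 0.05 there were 3 of 32, all lower, where 6.61% of all genes tested were lower and 9.45% higher at that level. The Hox median was −0.62, with 10 positive and 22 negative, compared with 0.17 over all genes, of which 57.3% were positive. In no Hox gene did the 4 FACS arrays lie wholly above or below the 10 LCM arrays, as they did above in 0.462% and below in 0.556% of all genes tested (1.02% in either direction). Under the other scalings and backgrounds it was between −0.90 and −0.38. Among medullary arrays of slide 2 alone it was 0.12, compared with 0.61 over all genes. By band the median was −1.02 for the 8 anterior members, 0.09 for the 12 central and −0.50 for the 12 posterior members tested.

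Hoxd1 was above background on none of the 4 FACS arrays (−5.39 and −7.32 subcapsular, −4.58 and −6.19 medullary) and on 6 of the 10 LCM arrays, given above. The mean LCM signal was at least 5.11-fold higher than the level of detection in FACS. The fitted difference was −3.37 ± 1.00 (SE) with a limma adjusted p of 0.0934. Without subcapsular LCM replicate 5 the limma adjusted p was 0.0482 and the difference −2.76. With the slide as a block the limma adjusted p was 0.463, and among medullary arrays of slide 2 alone it was 0.142. The difference with normexp was −1.60.
Hoxd4, which acts at the border of hindbrain and neck, was above background on no FACS array (−7.32 and −7.18 subcapsular, −5.18 and −6.00 medullary). In LCM it was −4.94, −5.39, −0.75, −6.03 and −6.02 in the subcapsular sinus, only the third above background, and −5.35, −0.83, −1.45, −1.29 and −5.78 in the medullary sinus, the middle 3 above it. The LCM mean was higher by at least 2.10-fold (limma adjusted p = 0.187).
Hoxc10 was 0.27 and −3.37 in subcapsular and −1.64 and −1.72 in medullary FACS, all above background. It was lower in FACS by a fitted −2.93 ± 1.07 (SE; limma adjusted p = 0.179). All 4 FACS arrays lay below all 5 medullary LCM arrays, while the subcapsular arrays of the isolations overlapped.

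Some members were above background throughout a FACS group and on 2 or fewer arrays of an LCM sinus. Hoxc8, which acts in the lower trunk, was −3.99 and −4.91 in subcapsular and −2.68 and −3.65 in medullary FACS, all above background. In LCM it was −3.03, −2.60, −7.16, −5.88 and −4.39 in the subcapsular sinus, with 3 above background, and −5.65, −6.57, −4.37, −6.37 and −5.56 in the medullary sinus, with 1. Its FACS minus LCM difference was 1.35 ± 0.68 (SE; limma adjusted p = 0.367).
Hoxb6 was −2.10 and −5.50 in subcapsular FACS, the first above background, and −3.75 and −3.23 in medullary FACS, both above it. In LCM only subcapsular replicate 5 (−1.40) and medullary replicates 1 and 3 (−2.96 and −3.87) were above background, and the remaining arrays lay between −7.05 and −4.95. Hoxb6 was not tested in LCM.
Hoxd3, which takes part in endothelial cell migration, was −2.79 and −6.53 in subcapsular and −3.69 and −3.82 in medullary FACS, the second not above background. In LCM it was −4.25, −4.14, −4.96, −4.25 and 2.40 in the subcapsular sinus and −6.95, −3.20, 0.39, 0.99 and −3.74 in the medullary sinus. The 2.40 of subcapsular replicate 5 was the highest of all 14.

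The test of whether the sinus difference itself differed between isolations called no Hox gene. With limma 0 of 32 members had an adjusted p under 0.05, where 1.29% of all 29654 genes tested did. At an unadjusted p under 0.05 there were 3 of 32, 2 higher and 1 lower, where 12.6% of all genes tested were higher and 8.71% lower. The median was 0.99 compared with 0.52, with 22 of 32 positive where 57.7% of all genes tested were. For Hoxb1, higher in the medullary sinus in LCM and not above background on the medullary arrays in FACS, the interaction was −4.73 ± 2.01 (SE; limma adjusted p = 0.205), and −0.72 with normexp. For Hoxc9 it was 5.12 ± 2.22 (SE; limma adjusted p = 0.213), and for Hoxd12 6.76 ± 2.99 (SE; limma adjusted p = 0.219; 3.49 with normexp). A difference between the isolations was not shown for any of these genes.

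Genes beside the Hox clusters were described from lists of related function. HOTAIR, the noncoding RNA made from the strand opposite the Hoxc genes, was above background on every array with the probe used. It was −1.88, −3.02, −3.46, −3.97 and −3.61 in subcapsular LCM and −2.55, −2.76, −3.21, −3.72 and −3.28 in medullary LCM. In FACS it was −3.56 and −4.59 in the subcapsular and 0.62 and 2.66 in the medullary sinus, so that the medullary FACS pair stood above the other 12 arrays. The interaction was 5.63 ± 0.98 (SE) with a limma adjusted p of 0.0192, while the FACS sinus difference of 5.72 had a limma adjusted p of 0.0819. Of the 5 HOTAIR probes, all between the Hoxc12 and Hoxc11 probes on the minus strand, the one used and the one with the next largest FACS difference are shown 5′ to 3′ in lower case, on mm9.
HOTAIR, probe used, chr15:102774847-102774906: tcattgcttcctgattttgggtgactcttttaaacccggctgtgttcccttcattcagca
HOTAIR, second probe, chr15:102775005-102775064: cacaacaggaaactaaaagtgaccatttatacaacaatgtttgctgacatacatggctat
The FACS sinus difference was 5.72 for the first and 4.70 for the second, which passed background on 1 medullary FACS array and on neither subcapsular one. The other 3 probes had smaller FACS sinus differences of 1.73, 1.89 and 0.78. Of these, the probe with 1.73 was above background on 1 subcapsular and both medullary FACS arrays, more often than the second probe shown. Only the probe used was above background on all FACS arrays, so the sizes of the others are not settled. With the mean of the gene's probes the interaction was 2.53 (limma adjusted p = 0.167). It also lost its call with the slide (0.106) or the row (0.0557) as a block, and without subcapsular FACS replicate 6 (0.0544) or 7 (0.148), each a limma adjusted p.
FACS minus LCM was 1.92 for HOTAIR (limma adjusted p = 0.0474), a call kept in 7 of 27 other settings. Leaving out any single array other than subcapsular LCM replicate 1 or medullary FACS replicate 6 ended it, with limma adjusted p between 0.0566 and 0.245. Hoxa11os, the RNA opposite Hoxa11, was also above background on all arrays, although Hoxa11 was above it on none. It was −1.19 and −2.34 in subcapsular and 1.42 and 1.58 in medullary FACS (difference 3.26 ± 0.69, SE, n = 2 per sinus; limma adjusted p = 0.0974). The labelling protocol is undisclosed per the labels, so whether it keeps strand is not known here. Of the 19 names on this list 7 were measured, and no probe was named for the microRNAs of the clusters.

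Cbx2, a Polycomb subunit that binds silenced chromatin and is known from Hox gene control, was the 1 called gene of the 21 tested Polycomb genes in LCM. It was above background on all 5 medullary LCM arrays, with 0.50, −0.14, 0.75, −0.50 and −0.09. In subcapsular LCM it was −4.06, −5.66, −7.12, −6.34 and −3.52, only the last above background, so the groups did not overlap. The difference was 5.45 ± 0.73 (SE, n = 5 per sinus; limma adjusted p = 0.0229). The call was lost with quantile normalization (0.0595), the deposited values (0.0663), normexp (0.0564), the row as a block (0.0553), all arrays in 1 fit (0.164) and without medullary LCM replicate 2 (0.0595), each a limma adjusted p. With normexp the difference was 2.34. In FACS Cbx2 was −3.25 and −7.39 in the subcapsular and −0.64 and −5.67 in the medullary sinus. The median of the 21 Polycomb genes in LCM was 0.06, with 11 positive and 10 negative.
In FACS 18 of 22 Polycomb and all 12 trithorax genes tested had lower medullary values, with medians of −1.76 and −2.60, compared with 0.73 over all genes tested. With limma 0 of 22 and 0 of 12 were called, where no gene was called at all. At an unadjusted p under 0.05 there were 10 lower and 2 higher of the 22 Polycomb genes and 4 lower of the 12 trithorax genes, where 13.7% of all genes tested were lower and 18.2% higher. Kdm6a, the demethylase that removes the Polycomb mark, was 0.90 and 1.90 in subcapsular FACS and −6.63 and −6.55 in medullary FACS, the latter not above background. The subcapsular mean was higher by at least 57.5-fold (limma adjusted p = 0.0647). Its interaction was −9.72 ± 1.83 (SE; limma adjusted p = 0.0254), and it lay between −5.56 and 1.72 in LCM. Of 26 other settings 20 kept that call. It ended without subcapsular FACS replicate 6 or 7 (0.0929 and 0.178), with the slide (0.133), row (0.066) or replicate number (0.098) as a block and without array weights (0.0753), each a limma adjusted p. With normexp the interaction was −4.20. Since the medullary FACS values are not above background, the interaction has no settled size.

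Retinoic acid, which switches on anterior Hox genes in the embryo, has its receptors and enzymes on a list of 18 genes. In LCM 0 of 15 tested were called by limma, with Aldh1a2, an enzyme that makes it, higher by 2.79 ± 1.03 (SE; limma adjusted p = 0.353) and Rxrg lower by a fitted −2.75 ± 0.87 (SE; limma adjusted p = 0.281). In FACS 0 of 16 were called, and at an unadjusted p under 0.05 there were 4 higher and 2 lower, where 31.9% of all genes tested passed in either direction. The receptor gene Rarg was −7.35 and −7.18 in subcapsular FACS, not above background, and −2.52 and 0.28 in medullary FACS, above it, a difference of at least 17.6-fold (limma adjusted p = 0.0875). In LCM it was above background only on medullary replicate 3. Its interaction was 5.86 ± 1.21 (SE; limma adjusted p = 0.0382), a call kept in 8 of 26 other settings, with a value of 2.65 with normexp. With 11 of the 14 Rarg values not above background it has no settled size. The call ended without either subcapsular FACS array (0.134 and 0.183), without medullary FACS replicate 7 (0.0569) and without replicate 1, 2 or 5 of either LCM sinus (0.0544 to 0.0638), each a limma adjusted p.

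Among TALE cofactors, 6 of 9 were above background on every array and none was called by limma in any of the 4 comparisons. At an unadjusted p under 0.05 there were 1 each in LCM (Meis2), FACS (Meis3), FACS minus LCM (Pbx2) and the interaction (Meis1), of 8, 7, 8 and 8 tested. The shares of all genes tested at that level were 11.7%, 31.9%, 16.1% and 21.3%. Meis1 was −3.35 and −4.01 in subcapsular and −1.87 and 1.31 in medullary FACS, and its interaction was 3.87 ± 1.17 (SE; limma adjusted p = 0.105). Meis2 was −6.02, 3.95, 0.94, −0.65 and −1.32 in subcapsular LCM and −1.84, −6.65, −5.13, −3.26 and −6.04 in medullary LCM (difference −3.96 ± 1.65, SE; limma adjusted p = 0.394), with 1 subcapsular and 3 medullary values not above background.
Of 14 factors of limb and axial position, none was called by limma in any comparison. Tbx4 and En1, known from the hindlimb and the limb bud, were above background on no array. Tlx1, needed for the spleen, was above it on all, with −0.12 to 2.02 in subcapsular and 0.04 to 0.58 in medullary LCM, −0.43 and −1.26 in subcapsular FACS and 1.44 and 0.55 in medullary FACS. Nkx2-3, needed for spleen and mucosal vessels, passed background on all 5 medullary LCM arrays but on 1 subcapsular one, with a difference of 1.98 ± 0.99 (SE; limma adjusted p = 0.475).
Of the 6 ParaHox genes, relatives of the Hox genes outside the clusters, 3 were tested and none was called. Gsx1 was above background on every array. Pdx1, the pancreas factor, was above it on both medullary and neither subcapsular FACS array.

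Levels of other cells' genes moved with the same groups. The 7 salivary gland genes summed to 0.444 to 56.8 in subcapsular and 2.34 to 18.6 in medullary LCM, in linear units of the 75th percentile, and to 1257 to 1285 and 260 to 659 in FACS. Fibroblastic reticular genes summed to 142 to 450 and 57.5 to 112 in LCM and to 24.6 to 28.1 and 9.45 to 27.0 in FACS. Fibroblasts are known to carry strong positional Hox patterns, and 5 of the 10 fibroblastic reticular genes tested were lower in FACS (limma adjusted p under 0.05), where 3.86% of all genes tested were called in either direction. Whether such cells account for any Hox value was not tested.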

How the data were processed

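The authors' scanner files come from Agilent Feature Extraction (version 10.7.3.1, per the file headers) and give each spot a background-adjusted intensity. The deposited table of log2 values, whose processing is not given in the sources used here, served as an alternative. RNA was amplified by SuperAmp and labelled with Cy3, per the labels. Here outlier spots were dropped, spots of a probe averaged, log2 taken and the 75th percentile of each array subtracted. Of 55681 probes, 27235 were named through RefSeq accessions, 3581 through current and 565 through older symbols, and 24300 keep the file's name.

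Differences were fitted over all genes passing the filter with limma 3.58.1 in R 4.3.3 (lmFit, eBayes, Benjamini-Hochberg, called under 0.05), after a test on simulated data. The filter asked for 3 of 5 LCM or 2 of 2 FACS arrays of a sinus well above background. FACS minus LCM and the interaction used 4 group means and array weights by isolation. Bounds ("at least") set the bright mean against, per array of the dim group, the dimmest probe well above background or the probe's own signal if higher. The number of arrays limits the precision. Marker sums add 2 to the power of each log2 value.

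Values on every array are given for the 8 Hox genes above background most often, the 3 with the lowest p in each comparison, and those above background throughout 1 group and at least 60 percentage points less often in another. Of other lists, called genes and the 2 with the lowest p in a comparison are named. Hoxd9, Hoxa5, Hoxb5, Hoxb7, Tbx4 and En1 were singled out after values were seen. Members and lists were chosen with earlier results of these data known. Same-numbered samples were not treated as pairs: correlations of their deviations from the group means were between −0.0196 and 0.0053. Plots were made in Python 3.11.15 using matplotlib 3.10.9. The values of 1 member are not reported here singly, though it stays in the counts.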

Additional observations from a re-analysis of the deposited data

Results flagged for a closer look

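In 10 of 78 groups of 5 LCM values of a Hox gene, 1 array lay far from the other 4. The limit was a gap over range above 0.71, which about 1 in 20 groups of normally distributed values pass. The ratio was not computed over all genes, so whether this share is particular to Hox genes was not tested. In 8 of the 10 groups the array was high. Hoxa9 had such an array in both sinuses, subcapsular replicate 1 at −1.01 and medullary replicate 4 at 1.2. The subcapsular cases also included Hoxa7 at −1.41 on replicate 2, Hoxc6 at 1.22 on replicate 1, Hoxd3 at 2.40 on replicate 5 and Hoxd4 at −0.75 on replicate 3. Among medullary arrays Hoxa4 was −3.31 on replicate 3 and Hoxd13 was −0.59 on replicate 5. The low arrays were medullary, with Hoxb1 at −7.15 on replicate 4 and Hoxb7 at −7.07 on replicate 5.

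The interaction test of sinus and isolation with limma called 1.29% of all genes tested, among them 3 genes of the lists related to Hox function. The fitted interaction was 5.63 for HOTAIR, 5.86 for Rarg and −9.72 for Kdm6a, where a positive value is a larger medullary excess in FACS. Rarg was above background on 1 of 10 LCM arrays and on neither subcapsular FACS array, and Kdm6a on neither medullary FACS array, so the last 2 values have no settled size.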

How the results depend on the processing

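No Hox gene was called in the standard settings, and 12 counts moved with another choice while 99 did not. In LCM 1 gene was called when the percentile was taken only over probes detected throughout (Hoxb9), 1 within slide 1 (Hoxb1), where these fits called 0.837% and 0.775% of all genes tested, and 0 to 1 on leaving out an array: 1 without subcapsular LCM replicate 5 (Hoxd1) and 1 without medullary LCM replicate 4 (Hoxb1), each with 0.351% of all genes called. In FACS 1 was called with the trend and robust options (Hoxc9) and 1 with all 14 arrays in a single fit (Hoxc5), with 6.51% and 16.2% of all genes called. Leaving out a FACS array gave 0 there, as with all arrays, which says nothing about stability since no gene was called in either. FACS minus LCM gave 0 to 1 on leaving out an array, with Hoxd1 called without subcapsular LCM replicate 5 (3.69% of all genes called). With the scanner's weaker mark, positive and significant, 22, 26, 27 and 32 Hox genes were above background on every array of subcapsular LCM, medullary LCM, subcapsular FACS and medullary FACS, compared with 66.2%, 75%, 83.4% and 85.2% of all genes. Without 1 array, subcapsular FACS gave 18 to 27.

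With the replicate number as a block 0 Hox genes were called in LCM, FACS and the interaction (lowest limma adjusted p 0.341, 0.172 and 0.132), where 0% of all genes tested were, and 0 with it as a random block in FACS minus LCM (0.0894). The fixed block removed every call, among them that of Cbx2 in LCM (0.171) and those of HOTAIR (0.110), Rarg (0.122) and Kdm6a (0.098) in the interaction, all limma adjusted p. Not run were the slide block in FACS, where all arrays share a slide, the row block, which goes with the sinus there, the stricter FACS filter, which equals the standard one, and a fixed replicate block in FACS minus LCM. Genes near background have only a bound, and samples of 50 cells give wide spreads.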
